A study of Homo sapiens with 4 samples.

Results

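The KLF genes encode Krüppel-like factors, zinc finger transcription factors that bind GC-rich and CACCC sequences. The 10 genes described here are KLF3, KLF4, KLF5, KLF6, KLF7, KLF9, KLF10, KLF11, KLF13 and KLF16, taken by symbol from the 17472 genes of the deposited table of normalised read counts. All 10 were listed, and all 10 passed the filter on low values. The libraries are poly(A) RNA of the established human embryonic stem cell line H1, grown in E8, a defined medium that contains FGF2 and TGF-beta. Libraries of H1 cells that carry MEK5DD (2 libraries) were compared with libraries of unmodified H1 cells, WT (2 libraries). MEK5DD is the kinase MAP2K5 (MEK5) with residues changed to aspartate. It was brought in by lentivirus, the cells were selected with puromycin, and the labels describe 1 such line. No library came from cells given virus and puromycin without MEK5DD, so effects of delivery, of selection and of this 1 line cannot be told apart from effects of the kinase.

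Every KLF protein ends in a block of C2H2 zinc fingers that is closely alike across the family, and the members differ mainly in the part before it. That part places most of them in 1 of 3 classes: activators that recruit acetyltransferases (KLF4, KLF5, KLF6 and KLF7 here), repressors that bind CtBP (KLF3), and factors that bind the corepressor SIN3A (KLF9, KLF10, KLF11, KLF13 and KLF16). In endothelial cells the MEK5-ERK5 kinase cascade is known to raise KLF2 and KLF4 through MEF2 factors, and in mouse embryonic stem cells Klf2, Klf4 and Klf5 help to hold the undifferentiated state. KLF2 was not analysed here.

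Libraries held 14908486 to 17628945 recovered reads. MAP2K5 had normalised counts of 3382 and 3558 in the MEK5DD libraries, against 344 and 315 in the WT libraries, so the gene introduced by label was higher in both MEK5DD libraries. The 10 pluripotency markers summed to normalised counts of 152160 and 144737 in the MEK5DD libraries, against 154428 and 152430 in the WT libraries; 1 rose (NANOG) and 2 fell (TERF1 and SOX2), and none of these 3 passed when either WT library was left out (adjusted p from 0.146 to 0.486, limma) or with no mean-variance trend (0.153 to 0.238). Over all genes tested, 14.2% passed an adjusted p of 0.05 (limma), 7.69% higher and 6.47% lower in MEK5DD.

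The stretches of genome just before a RefSeq start of 4 of the genes that rose are shown here. KLF6, KLF4 and KLF13 are the rising members with 1 listed start in the RefSeq promoter table (GRCh38.p14). The KLF7 window is shown because it is the 1 member window that holds a CArG box, the sequence bound by serum response factor. Each run is the 250 bases before the start, 5′ to 3′ on the gene's strand. Capitals mark CACCC boxes, GC boxes (GGGCGG), the CArG box and CCAAT boxes, searched on both strands. In KLF13 a GC box overlaps a CACCC box. The KLF4 window lies inside the KLF4 gene as GENCODE v29 places it (107484852 to 107490482).
KLF6 upstream, chr10:3785210-3785459, minus strand: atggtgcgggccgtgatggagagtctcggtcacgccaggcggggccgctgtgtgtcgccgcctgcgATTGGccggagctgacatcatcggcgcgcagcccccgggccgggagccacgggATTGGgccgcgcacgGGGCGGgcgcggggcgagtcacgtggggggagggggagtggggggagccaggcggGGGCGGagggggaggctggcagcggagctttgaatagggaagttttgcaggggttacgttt
KLF4 upstream, chr9:107489770-107490019, minus strand: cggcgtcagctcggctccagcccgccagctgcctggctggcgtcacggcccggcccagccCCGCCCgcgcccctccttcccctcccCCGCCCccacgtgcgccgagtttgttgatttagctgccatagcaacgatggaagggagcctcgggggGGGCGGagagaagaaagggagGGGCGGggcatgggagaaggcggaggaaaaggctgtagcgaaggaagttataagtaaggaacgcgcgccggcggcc
KLF13 upstream, chr15:31326585-31326834, plus strand: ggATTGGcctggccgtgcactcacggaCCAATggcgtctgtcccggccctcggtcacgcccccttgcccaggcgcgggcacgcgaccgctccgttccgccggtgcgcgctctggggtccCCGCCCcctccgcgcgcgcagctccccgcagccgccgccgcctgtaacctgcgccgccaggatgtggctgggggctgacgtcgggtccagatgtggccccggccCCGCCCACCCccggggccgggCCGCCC
KLF7 upstream, chr2:207167247-207167496, minus strand: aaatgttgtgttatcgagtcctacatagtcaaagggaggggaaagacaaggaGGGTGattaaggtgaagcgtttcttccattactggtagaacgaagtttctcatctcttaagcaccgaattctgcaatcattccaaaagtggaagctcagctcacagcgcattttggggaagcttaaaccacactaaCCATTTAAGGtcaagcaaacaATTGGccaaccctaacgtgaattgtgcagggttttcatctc

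The table held windows for 8 of the 10 members, 13 windows in all since KLF5, KLF7 and KLF11 have several starts. A GC box, the sequence that KLF and SP factors themselves bind, was found in at least 1 window of 7 members (KLF4, KLF5, KLF6, KLF7, KLF11, KLF13 and KLF16), in 8 of the 13 windows. Of all 35116 promoter windows of that length, 42.6% hold one. CACCC boxes were found in 6 of the 13 windows, of 4 members (54.7% of all windows hold one), and CCAAT boxes in 6 of the 13, of 5 members (32% of all windows). The CArG box of KLF7 lies 62 to 53 bases before the start and overlaps neither the CACCC nor the CCAAT box of that window, which holds no GC box, and 1.16% of all windows hold one. The cAMP response element (TGACGTCA; 1.65% of all windows) was found in 1 window, of KLF11. No AP-1 site (TGANTCA; 6.57% of all windows) and no MEF2 site (2.8% of all windows) was found in the 13 member windows. Which start the libraries used was not measured.

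MEK5DD was compared with WT to ask which KLF transcripts differ between cells that carry the active kinase and unmodified cells. The normalised count was higher in both MEK5DD libraries than in both WT libraries for 9 of the 10 members, an arrangement found in 28.2% of all genes tested, and lower in both for KLF11, as in 28% of all genes tested. Of the 10 members 7 rose, KLF3, KLF4, KLF5, KLF6, KLF7, KLF10 and KLF13, and none fell; 7.69% of all tested genes were called higher. The median log2 fold change of the 10 members was 0.55, against -0.00233 over all genes tested. In bulk RNA, fewer cells that express a gene and less RNA per cell cannot be told apart. The labels do not say whether the replicates came from separate cultures, so the p-values reflect only how far these libraries differ, which may be technical.

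**Figure D1:**
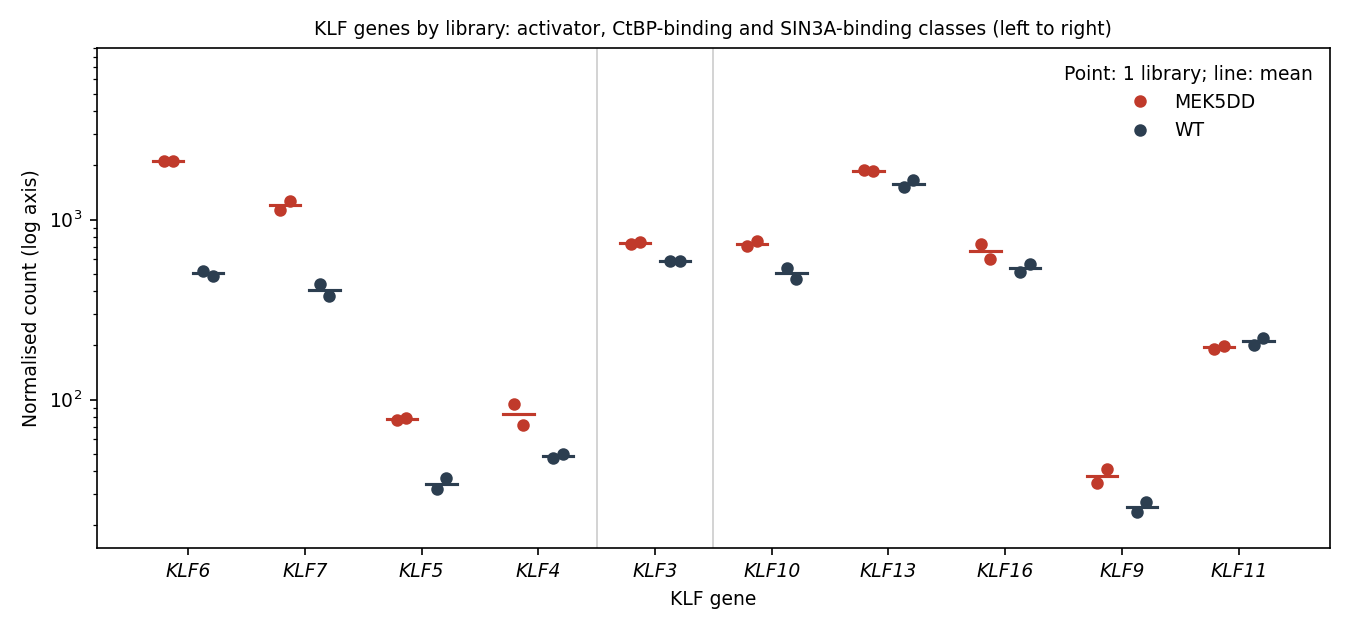
Normalised read count (log axis) of the 10 KLF genes in each library, with MEK5DD left of WT; points are libraries and lines are means of 2 libraries. KLF6 stands at 2127 and 2121 in the 2 MEK5DD libraries, against 517 and 488 in the WT libraries, and KLF11 is the member whose MEK5DD values (192 and 198) lie below its WT values (202 and 219).

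All 4 members of the activator class rose. KLF6 is widely expressed and is known to respond within hours to growth stimuli and tissue injury. It had normalised counts of 2127 and 2121 in the MEK5DD libraries, against 517 and 488 in the WT libraries. The MEK5DD libraries were nearly equal and each lay about 4-fold above either WT library. The fold change was 4.22 (log2 2.08, SE 0.07, adjusted p = 4.70e-09, limma), which ranked KLF6 in place 42 among the 15721 genes tested, by size of rise.

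KLF7 is known in mice for roles in neuronal growth and axon formation. Its normalised counts were 1135 and 1260 in the MEK5DD libraries, against 438 and 375 in the WT libraries. Each MEK5DD library was thus more than 2-fold above each WT library. The rise was 2.95-fold (log2 1.56, SE 0.10, adjusted p = 8.23e-07, limma), in place 82 of the 15721 genes.

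KLF5 supports epithelial proliferation and, in mouse embryonic stem cells, self-renewal. It was a low transcript, with normalised counts of 77.2 and 78.7 in the MEK5DD libraries, against 31.7 and 36.5 in the WT libraries (85 and 79 recovered reads in MEK5DD, against 36 and 35 in WT). The rise was 2.26-fold (log2 1.17, 95% confidence interval 0.71 to 1.64, adjusted p = 0.00300, limma). KLF4, a factor used to reprogram somatic cells to pluripotency, had normalised counts of 94.5 and 71.8 in the MEK5DD libraries, against 47.6 and 49.99 in the WT libraries. Both MEK5DD values were higher, but they differed from each other by 0.39 on the log2 scale, the widest MEK5DD pair among the 10 members. KLF4 rose 1.68-fold (log2 0.74, 95% confidence interval 0.30 to 1.19, adjusted p = 0.0314, limma).

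KLF6, KLF7 and KLF5 passed the threshold in all 15 alternatives. KLF4 did not pass when a WT library was left out (limma, adjusted p = 0.0858 for replicate 1 and 0.0523 for replicate 2), nor when MEK5DD replicate 1 was (log2 0.55, adjusted p = 0.136). It also failed to pass when limma was run with no mean-variance trend (adjusted p = 0.103) and in DESeq2 (adjusted p = 0.138).

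**Figure D2:**
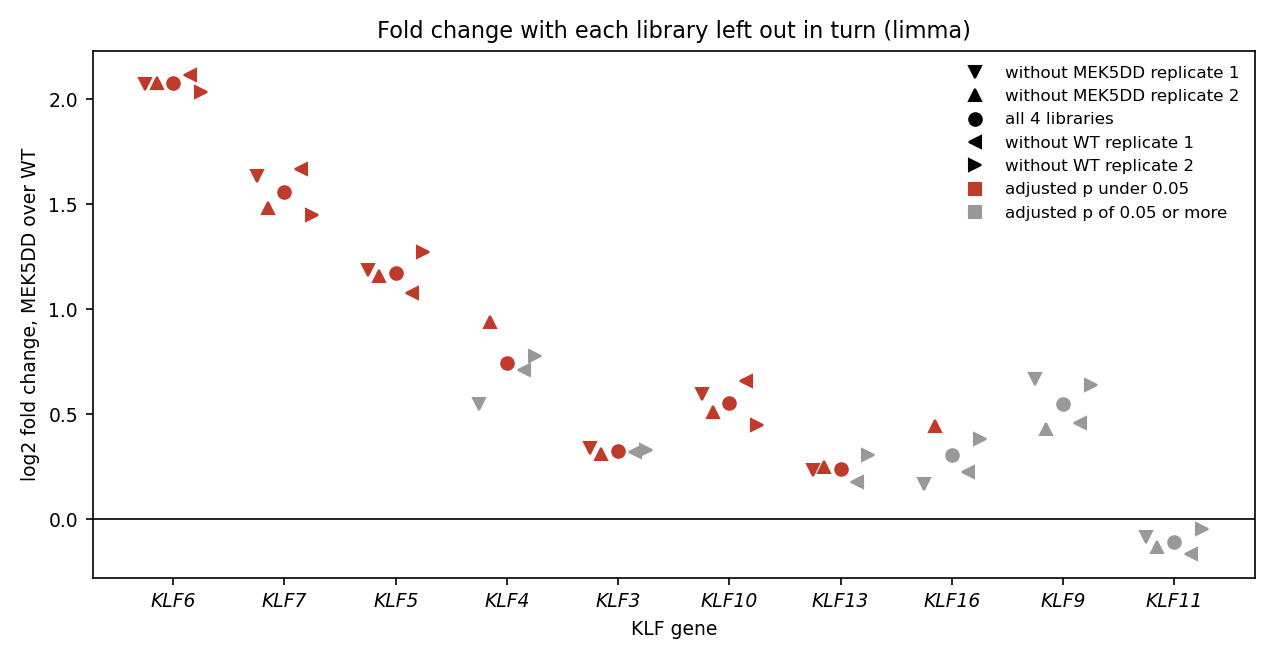
The log2 fold change (MEK5DD over WT, limma) of each KLF gene over all 4 libraries and with each library left out in turn; red marks an adjusted p under 0.05 and grey one of 0.05 or more. KLF6, KLF7, KLF5 and KLF10 are red in all 5 fits, whereas KLF3, KLF4 and KLF13 turn grey without either WT library, and KLF4 also without MEK5DD replicate 1.

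In the CtBP-binding class, KLF3 was the member studied; in mice it represses other KLF-driven promoters in red cells and fat cells. Its normalised counts were 731 and 746 in the MEK5DD libraries, against 587 and 592 in the WT libraries. Both pairs were tight, and the groups did not overlap. KLF3 rose 1.25-fold (log2 0.32, SE 0.08, adjusted p = 0.0195, limma). Leaving out a WT library ended the call: leaving out replicate 1 gave an adjusted p of 0.193 and leaving out replicate 2 one of 0.176. With no trend it was 0.116 and in DESeq2 0.0691, while its log2 fold change stayed between 0.30 and 0.34. KLF3 shares 266 exonic bases with the antisense gene KLF3-AS1, and the sources used here do not say if reads were counted by strand. KLF3-AS1 held only 16.4 and 6.98 normalised counts in the MEK5DD libraries, against 14.97 and 14.6 in the WT libraries.

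In the SIN3A-binding class 2 of 5 members rose and 3 did not pass. KLF10, named TIEG for its early induction by TGF-beta, had normalised counts of 713 and 757 in the MEK5DD libraries, against 538 and 466 in the WT libraries. All MEK5DD values were above all WT values. It rose 1.47-fold (log2 0.55, SE 0.09, adjusted p = 0.00224, limma) and lost its call in 1 of 15 alternatives, without the mean-variance trend (adjusted p = 0.0922). KLF11, its closest relative and also a TGF-beta early gene, had normalised counts of 192 and 198 in the MEK5DD libraries, against 202 and 219 in the WT libraries. Its log2 fold change was -0.11 (95% confidence interval -0.37 to 0.16, adjusted p = 0.620, limma), and it passed in 0 of 15 alternatives.

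KLF13, a factor known for driving the chemokine gene CCL5 in T cells, had normalised counts of 1873 and 1854 in the MEK5DD libraries, against 1508 and 1650 in the WT libraries. The rise was small, 1.18-fold (log2 0.24, SE 0.07, adjusted p = 0.0426, limma). Leaving out WT replicate 1 ended the call (log2 0.18, adjusted p = 0.535), as did leaving out WT replicate 2 (adjusted p = 0.154). The same held after quantile normalisation (adjusted p = 0.0716), with no trend (adjusted p = 0.221) and in DESeq2 (adjusted p = 0.107).

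KLF16, described in mice as a regulator of dopamine receptor genes, had normalised counts of 733 and 606 in the MEK5DD libraries, against 511 and 570 in the WT libraries. The groups did not overlap, but MEK5DD replicate 2 lay close to WT replicate 2. The log2 fold change of 0.30 (95% confidence interval 0.08 to 0.53) did not pass after adjustment (adjusted p = 0.0764, limma). It passed without MEK5DD replicate 2 (log2 0.44), in a fit whose spread comes from the WT pair alone. It also passed with a term for the replicate number (limma, adjusted p = 0.0078). That fit called 3349 of 15721 genes, against 2226 without the term. KLF9, which glucocorticoids and thyroid hormone induce, was the lowest member, with normalised counts of 34.5 and 40.9 in the MEK5DD libraries, against 23.8 and 27.1 in the WT libraries. Its log2 fold change of 0.55 (95% confidence interval -0.04 to 1.14, adjusted p = 0.211, limma) equalled that of KLF10, but it rested on 38 and 41 recovered reads in MEK5DD, against 27 and 26 in WT, and did not pass.

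Across the alternatives, 3 members stayed called without the mean-variance trend (1.58% of all tested genes were higher there), 4 with DESeq2 (5.42%) and 7 with edgeR (7.94%). KLF6, KLF7, KLF5 and KLF10 were called over all 4 libraries and without each library in turn, as were 3.07% of all tested genes. KLF6, KLF7 and KLF5 were called with a rise of at least 2-fold, as were 1.32% of all tested genes.

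KLF8, KLF12 and KLF15 were the other 3 family members listed. KLF8, a CtBP-binding repressor whose gene is repressed by Klf3 in mouse red cells, had normalised counts of 354 and 397 in the MEK5DD libraries, against 263 and 248 in the WT libraries (log2 0.55, SE 0.11, adjusted p = 0.00517, limma; 0.0815 without the trend). KLF12, a CtBP-binding repressor of the AP-2 alpha gene, had overlapping normalised counts of 529 and 654 in the MEK5DD libraries, against 573 and 587 in the WT libraries (log2 0.02, 95% confidence interval -0.21 to 0.25, adjusted p = 0.930, limma). KLF15, a glucocorticoid-induced regulator of metabolism in muscle and liver, was the 1 KLF gene that fell. Its normalised counts were 133 and 87.7 in the MEK5DD libraries, against 229 and 212 in the WT libraries. The MEK5DD libraries differed by 0.59 on the log2 scale but both lay well below WT (log2 -1.02, SE 0.18, adjusted p = 0.00252, limma; 0.107 with no trend). Of the 13 KLF genes listed, 8 thus rose and 1 fell, beside 7.69% of all tested genes called higher and 6.47% lower.

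The SP genes encode the nearest relatives of the KLF factors, with like zinc fingers that bind GC boxes. Over all genes tested, 14.2% passed the threshold with limma. Of the 6 SP genes listed, SP1, SP2, SP3, SP4, SP6 and SP8, 0 passed it, and 0 had an unadjusted p under 0.05. With MEK5DD replicate 2 left out, SP1 was called lower (log2 -0.23), in a fit whose spread comes from the WT pair alone. Their log2 fold changes ran from -0.62 (SP6) to 0.01 (SP8). SP8, a factor of limb and forebrain patterning, had normalised counts of 1944 and 1888 in the MEK5DD libraries, against 1915 and 1885 in the WT libraries, a log2 fold change of 0.01 (95% confidence interval -0.13 to 0.16). SP1, the general GC-box activator, had normalised counts of 2264 and 2642 in the MEK5DD libraries, against 2731 and 2584 in the WT libraries (log2 -0.12, 95% confidence interval -0.29 to 0.05, adjusted p = 0.363, limma).

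**Figure D3:**
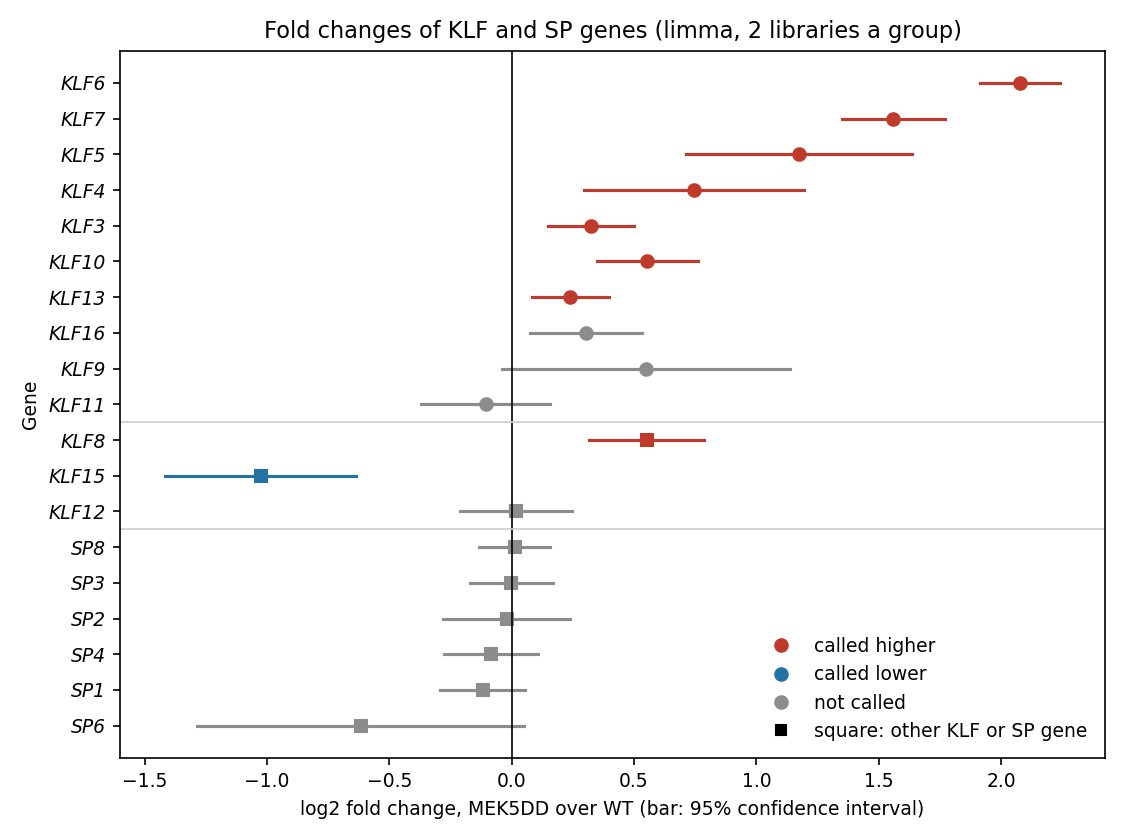
The log2 fold change (MEK5DD over WT) with its 95% confidence interval (limma, 2 libraries a group) for the 10 KLF genes (circles) and for the 3 other KLF and 6 SP genes listed (squares); red is called higher, blue called lower and grey not called. The activator class KLF6, KLF7, KLF5 and KLF4 lies from 2.08 to 0.74, KLF15 lies at -1.02, and the intervals of all 6 SP genes include 0.

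Levels of different KLF genes were compared per kilobase of exon, since longer transcripts give more reads. KLF6 was the highest of the 13 listed KLF genes in both MEK5DD libraries, at 347 and 345 normalised counts per kilobase, against 84.2 and 79.6 in the WT libraries, where it was in place 5. In the WT libraries KLF16 led, at 173 and 193 per kilobase, and overlapped with KLF13 at 160 and 175. KLF7 was in place 5 in MEK5DD, at 123 and 136 per kilobase, and in place 9 in WT, at 47.3 and 40.5, where it overlapped with KLF11 (44.0 and 47.7).

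KLF15 stood in place 10 in MEK5DD, at 46.6 and 30.8 per kilobase, and in place 6 in WT, at 80.4 and 74.6. Its MEK5DD values overlapped those of KLF8 and KLF11. KLF4, KLF5 and KLF9 held the 3 lowest places in both groups, so the called rises of KLF4 and KLF5 did not take them past another KLF gene outside those places. KLF4 averaged 22.7 ± 4.39 per kilobase in MEK5DD and 13.3 ± 0.47 in WT (SD, n = 2 each).

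Summed over the 13 KLF genes, the per-kilobase level was 1439 and 1417 in the MEK5DD libraries, against 924 and 930 in the WT libraries. KLF6, KLF7, KLF4 and KLF5 together made up 35.8% and 36.8% of that sum in the MEK5DD libraries, against 16.5% and 15.4% in the WT libraries. Without KLF6 and KLF7, the other 8 of the 10 members summed to 836 and 801 per kilobase in the MEK5DD libraries, against 631 and 654 in the WT libraries. In reads, the 10 members took 0.0484% and 0.0492% of each MEK5DD library, against 0.0284% and 0.0288% of each WT library. Exon lengths are those of all exons annotated in GENCODE v29, so a gene with long, little-used exons is placed too low.

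**Figure D4:**
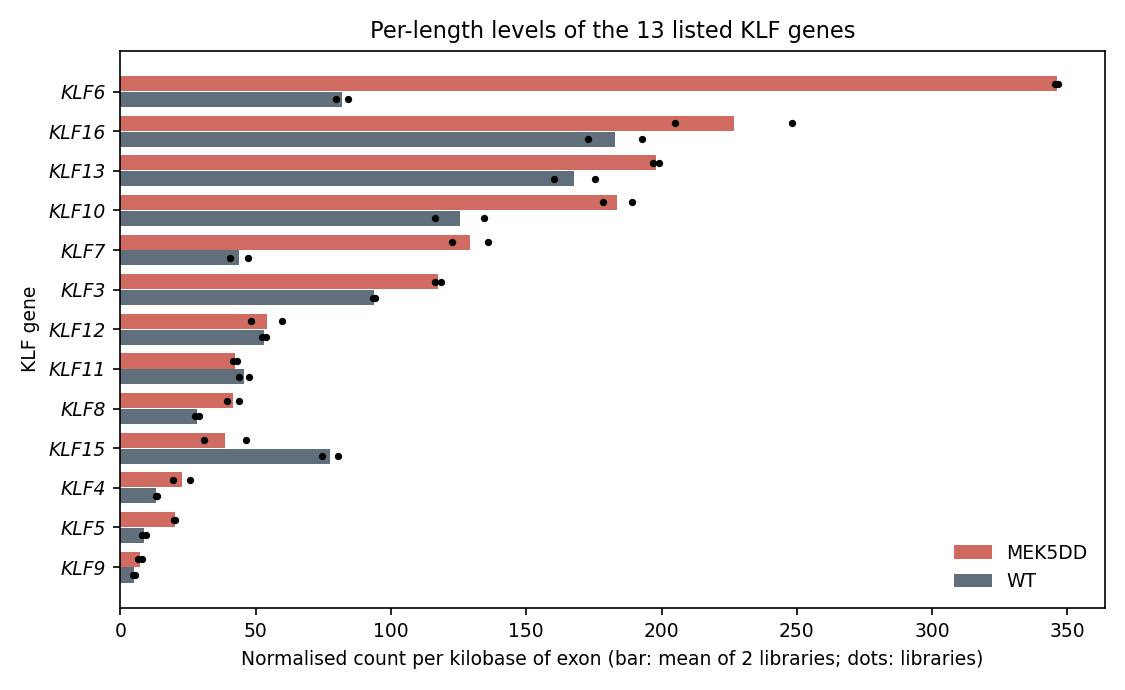
Normalised count per kilobase of exon for the 13 listed KLF genes, ordered by their MEK5DD mean, with the MEK5DD bar above the WT bar; bars are means of 2 libraries and dots are libraries. KLF6 leads in MEK5DD, near 346, and stands near 81.9 in WT, below KLF16, KLF13, KLF10 and KLF3.

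The members lie on separate chromosomes or far apart on the same one. In GRCh38 (GENCODE v29) KLF6 lies on the minus strand of chromosome 10, 3775996 to 3785281, and KLF5 on the plus strand of chromosome 13, 73054976 to 73077542. KLF7 (207074137 to 207167267, minus strand) and KLF11 (10042849 to 10054836, plus strand) share chromosome 2, and KLF7 rose whereas KLF11 did not pass. KLF4 (107484852 to 107490482) and KLF9 (70384597 to 70414624) share the minus strand of chromosome 9. KLF16 overlaps the listed gene AC012615.4 outside exons, KLF3 overlaps KLF3-AS1, and the other 8 members overlap no listed gene.

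Called genes made up 7.69% (higher) and 6.47% (lower) of all genes tested. Upstream of the KLF genes, the ERK5 cascade and MEF2 list had 2 of 7 tested members higher, 0 lower (median log2 fold change 0.22). These were MAP2K5 itself, which includes the introduced transcript, and MEF2D, a transcription factor gene of the family that ERK5 activates (log2 0.30, adjusted p = 0.0446, limma). The MEF2D call was lost with either WT library left out (adjusted p = 0.372 for replicate 1, 0.208 for replicate 2). It was also lost with upper-quartile factors (0.0522), after quantile normalisation (0.0663), with no trend (0.139) and in DESeq2 (0.173). MAPK7, the gene of ERK5, had normalised counts of 392 and 346 in the MEK5DD libraries, against 336 and 328 in the WT libraries (log2 0.15, adjusted p = 0.398, limma).

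Of 9 TGF-beta pathway genes that act on KLF10 and KLF11, 1 rose and 0 fell (median 0.12, with 14.2% of all tested genes called). It was the ligand gene TGFB1, with normalised counts of 161 and 157 in the MEK5DD libraries, against 84.6 and 92.7 in the WT libraries (log2 0.84, adjusted p = 0.00263, limma). TGFB1 shares 215 exonic bases with the listed gene HNRNPUL1, and whether reads were counted by strand is not given.

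Glucocorticoid and clock genes are linked to KLF9 and KLF15. Of 9 tested, 1 rose and 0 fell (median -0.11, with 14.2% of all tested genes called). TSC22D3, the glucocorticoid-induced leucine zipper gene, had normalised counts of 664 and 670 in the MEK5DD libraries, against 321 and 272 in the WT libraries (log2 1.17, SE 0.10, adjusted p = 1.50e-05, limma). Of the 9, 3 were higher and 4 lower in both MEK5DD libraries than in both WT libraries (28.2% and 28% of all tested genes). KLF15 fell in the same libraries, whereas KLF9 had a log2 fold change of 0.55 and did not pass.

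Genes of proteins that work with KLF factors were also counted, beside the 14.2% called over all tested genes. Among 11 corepressor and coactivator genes 0 rose and 1 fell (median -0.02): the acetyltransferase gene EP300, whose log2 fold change was -0.25 (adjusted p = 0.0450, limma), which was 0.270 with WT replicate 1 left out, 0.244 with WT replicate 2 left out, 0.273 with no trend and 0.0815 in DESeq2. Among 6 genes of KLF protein turnover 0 rose and 1 fell (median -0.08), the deubiquitinase gene USP3 (log2 -0.34, adjusted p = 0.0259, limma), which was 0.140 and 0.262 with WT replicate 1 or 2 left out, 0.117 with no trend and 0.100 in DESeq2.

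Of 11 tested genes that accompany KLF4 and KLF5 in the naive pluripotent state, 1 rose and 1 fell (median 0.05). The share of all tested genes called was 14.2%. TFCP2L1, a naive-state transcription factor, had normalised counts of 382 and 398 in the MEK5DD libraries, against 266 and 259 in the WT libraries (log2 0.57, adjusted p = 0.00282, limma; 0.0566 with no trend). NR5A2, a nuclear receptor gene, fell to 870 and 921 in the MEK5DD libraries, against 1116 and 1197 in the WT libraries (log2 -0.37, adjusted p = 0.00796, limma; 0.120 with no trend), which did not pass once WT replicate 2 was left out (adjusted p = 0.168).

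Of 12 genes reported as KLF targets in other systems, 5 rose and 2 fell (median 0.39), and 4 of the 5 rises and 1 of the 2 falls were also called without each library in turn. LGALS3, the galectin-3 gene that Klf3 represses in mice, had normalised counts of 130 and 122 in the MEK5DD libraries, against 41.4 and 41.7 in the WT libraries (log2 1.57, SE 0.18, adjusted p = 0.000128, limma). CDKN1A, a cell cycle inhibitor gene that KLF4 and KLF6 activate, had 1416 and 1406 in the MEK5DD libraries, against 646 and 624 in the WT libraries (log2 1.15, SE 0.08, adjusted p = 1.14e-06, limma). TAGLN, a smooth muscle gene that KLF4 represses and KLF5 activates, also rose (log2 1.02, SE 0.09, adjusted p = 1.03e-05, limma). TAGLN shares 446 exonic bases with the listed gene PCSK7. TGFB1, given above, was the other named rise. The remaining called genes, which hold the 2 falls, were ODC1, PLAU and CCND1. KLF3, whose mouse form represses LGALS3, was itself called higher over all 4 libraries. Among all tested genes 7.69% were called higher and 6.47% lower. Whether any of these target changes depends on a KLF factor was not measured.

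Marker genes of other cell types were called in both directions, beside 7.69% of all tested genes called higher and 6.47% lower. Of 5 listed endothelial markers 4 were tested and 2 rose, TEK (64.5 and 66.8 in the MEK5DD libraries, against 23.8 and 19.8 in the WT libraries) and KDR. The list summed to 5472 and 5717 in MEK5DD, against 2832 and 2741 in WT, and KDR alone made up 5366 and 5608 in MEK5DD, against 2757 and 2669 in WT. The log2 fold changes of the 4 tested ran from -0.62 to 1.55, with 1 gene lower in both MEK5DD libraries than in both WT libraries. Of 4 fibroblast markers 2 rose, COL1A1 and COL1A2, with sums of 8413 and 8106 in MEK5DD, against 7111 and 7016 in WT. The log2 fold changes of these 4 ran from -0.39 to 0.75, with 1 gene lower in both MEK5DD libraries than in both WT libraries. Neuroectoderm markers fell in 4 of 5 tested genes, SIX6, SOX1, MAP2 and SOX3. The other tested gene had a log2 fold change of 0.19 and did not pass. This list summed to 495 and 512 in MEK5DD, against 1956 and 2015 in WT. SIX6 alone made up 199 and 186 in MEK5DD, against 1272 and 1282 in WT. SOX1 held only 9 and 12 recovered reads in MEK5DD, and MAP2 only 10 and 15. Amnion and trophoblast markers had 1 of 4 higher and 3 lower, with sums of 270 and 285 in MEK5DD, against 448 and 485 in WT, and endoderm markers had 1 of 3 higher and 2 lower, with sums of 121 and 103 in MEK5DD, against 181 and 195 in WT. With 1 WT library left out, the amnion and trophoblast gene KRT7 did not pass (adjusted p = 0.227 without replicate 1), nor did the endoderm genes GATA4 (0.209 and 0.084 without replicate 1 or 2) and HHEX (0.0539 without replicate 2). With no trend the adjusted p was 0.0581 for COL1A1, 0.0511 for GABRP, 0.107 for GATA3, 0.0963 for KRT7 and 0.0756 for HHEX. In DESeq2 it was 0.119 for KRT7 and 0.0587 for HHEX, and after quantile normalisation 0.0536 for GATA4. PECAM1, CDH5, COL3A1, DCN and LUM were not analysed here. The part of such cells in the KLF values was not tested.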

How the data were processed

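The deposited table gives, for 17472 genes, a signal per library, which is the authors' normalised gene count. That each library was divided by 1 size factor follows from the values: 100% were whole multiples of the library's smallest value (within 0.001), and division by it gave the recovered reads. In the submitters' processing notes the build is hg38, and the tools, given without role or order, are DESeq2 1.26.0, featureCounts 1.5.3, STAR and Trimmomatic 0.36. Neither strand setting nor annotation is given in the sources used here.

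The 15721 genes that reached a value of 10 in 2 or more libraries were tested on the log2(value + 1) scale (limma 3.58.1, R 4.3.3; mean-variance trend, no covariates). Folds are on that scale, which understates low genes. P-values are two-sided with Benjamini-Hochberg adjustment across all 15721, and 0.05 is the threshold. No batch is labelled. The 10 KLF genes, the lists and the named genes (all KLF and SP genes, MAP2K5, MAPK7, and up to 4 called genes a list) were chosen with earlier results of these data known. Lists are described by counts, with no test. RefSeq promoter windows were matched by symbol.

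Tested on simulated data of 15711 genes (MEK5DD and WT), the procedure recovered 76.1% of 1.5-fold, 94% of 2-fold and 100% of 4-fold changes. Of its 183 calls, 3 were false. The changed genes numbered 67, 67 and 66 in turn, whereas 2226 genes were called in the real libraries. All changed genes were drawn from those with a mean value of at least 50. The rates were not split by gene level or by spread within a group. They therefore do not speak for low genes such as KLF9, or for pairs that differ in spread. Alternatives were pseudocounts of 0.5 and 5, no filter, a mean of at least 50, other scalings, no trend, a replicate term, each library left out, and, on recovered reads, DESeq2 1.42.0 and edgeR's quasi-likelihood test (4.0.16). The edgeR test called 2306 genes.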

Additional observations from a re-analysis of the deposited data

How the results depend on the processing

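Of 10 KLF genes 7 were called. The number was 3 with no mean-variance trend, 4 with DESeq2, 6 after quantile normalisation and 4 to 8 with 1 library left out (4 without WT replicate 1 and 4 without WT replicate 2). Of all genes, 2226 were called; the count was 439 without the trend, 1358 with DESeq2, 3349 with the replicate block and 1157 to 4608 with 1 library left out (1184 and 1157 without WT replicate 1 or 2, 3715 and 4608 without MEK5DD replicate 1 or 2). No member's log2 fold change turned its sign in any of 149 alternative values: 132 kept their side of the threshold, 15 lost the call and 2 gained it.

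The replicate number pairs nothing by the labels, and same-numbered libraries deviated together with a correlation of 0.047 over 15721 genes. With the replicate block 8 members were called, KLF16 in addition. A fit without 1 library leaves a group with 1 sample, which is assumed to vary like the other pair. The MEK5DD libraries differed more from each other than the WT libraries (chi-square per degree of freedom 6.09, against 1.87). Over all tested genes the median absolute log2 difference was 0.148 in the MEK5DD pair and 0.097 in the WT pair. For the 10 members it was 0.07 in the MEK5DD pair and 0.14 in the WT pair.

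For genes outside the 10 that limma did not call, some log2 fold changes turned. KLF12 was -0.0039 after quantile normalisation and -0.13 to 0.17 with 1 library left out, and SP8 was -0.0034 with upper-quartile factors, -0.014 after quantile normalisation and -0.0093 to 0.033 with 1 left out. SP3 was 0.0023 with edgeR, 0.0015 with DESeq2 and -0.11 to 0.11 with 1 left out; with 1 left out SP2 ran from -0.11 to 0.064 and KLF3-AS1 from -0.98 to 0.14. The causes were not tested. Low read numbers limit KLF9, KLF5 and KLF4.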
